A study of Mus musculus with 2 samples.

Results

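The genes described are the Hox genes of the Hoxa, Hoxb, Hoxc and Hoxd clusters together with the Meis and Pbx genes, taken from a list of 44 gene symbols. A gene was measured when at least 1 Affymetrix probe set carried it as its only gene in the platform annotation. By that rule 39 of the 44 genes were measured, by 63 probe sets, of 18193 annotated genes in all. Hoxa6, Hoxb8, Hoxc11, Hoxc12 and Hoxd4 had no probe set of their own in the annotation used and were not analysed. RNA came from haematopoietic stem cells of Wip1 knockout mice and of wild-type mice, both aged 3 months, with 1 array per genotype. Wip1 is the phosphatase encoded by Ppm1d and a known brake on p53. The sources used here do not give the deleted part of the gene, the surface markers of the sort, the sex of the animals or whether animals were pooled.

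Hox genes encode homeodomain transcription factors that lie in 4 clusters on separate chromosomes. Within a cluster the genes are ordered by paralogue number, and low numbers are used towards the head of the embryo and high numbers towards the tail. Meis and Pbx proteins belong to another class of homeodomain proteins and bind DNA together with Hox proteins. In blood, Hoxa9 and Meis1 are known for sustaining stem cells and for driving leukaemia when both are overexpressed, and forced Hoxb4 expression is known to expand stem cells.

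Each probe set had 1 deposited intensity per array, on a linear scale. A floor was set at the median of all probe sets of an array, 25.9 for the knockout and 25.2 for the wild type, and a gene was called detected when 1 array or both lay above it. Differences are log2 knockout minus wild type, with the arrays centred on each other, and a gene was represented by its brightest probe set. With 1 array per genotype there is no replicate and no test, so no p-value is given. The only error available was how far probe sets for the same gene disagreed, with an SD of 0.22 on the log2 scale over 5084 genes, and it holds no variation between animals or arrays. Brightness also depends on the probe set, so intensities do not rank genes by transcript level. The same limit applies to which genes were called detected or bright, and so to their counts by cluster and position.

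The targeted gene, Ppm1d, differed by less than the SD in its brighter probe set (160 in the knockout, 167 in the wild type) and in its dimmer one (59.0 in the knockout, 55.6 in the wild type). These may lie outside the deletion and then check nothing. Transcripts tied to sex differed: Xist had lower values in the knockout in all 3 of its probe sets (-0.86, -0.58 and -0.71). Its brightest probe set still had 3778 in the knockout, against 6228 in the wild type. Eif2s3y, on the Y chromosome, had 149 in the knockout against 31.8 in the wild type. Kdm5d, also on the Y chromosome, had 65.2 in the knockout and 8.92, under the floor, in the wild type. The other probe sets of these Y genes were under the floor on both arrays. The part of sex in the Hox differences was not tested, and with 1 array per genotype it cannot be told apart from genotype. Of 13 measured stem cell markers (Hoxb5 is one of them), 12 lay above the floor on both arrays, and the other was Hoxb5. Of 12 measured stromal markers, looked at because connective tissue cells also use Hox genes, 5 lay above the floor on both arrays (Pdgfrb, Col1a2, Kdr, Sp7 and Dcn) and 6 lay under it on both, among them Col1a1, Cxcl12 and Pdgfra. Markers of neutrophils (10 of 10 measured) and lymphoid cells (8 of 10) also lay above the floor on both arrays.

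Few Hox genes stood above the floor, and those that did lay mostly in stretches of the Hoxa and Hoxb clusters. Of 39 measured member genes, 14 were detected, against 62.9% of all genes, and 13 were above the floor on both arrays, against 60.2%. Only 5 member genes lay above the 75th percentile of both arrays (36.8% of all genes): Hoxa5, Hoxa7, Hoxa9, Meis1 and Pbx2. By cluster, 4 of 9 Hoxa genes were detected (Hoxa5, Hoxa7, Hoxa9 and Hoxa10), 4 of 9 Hoxb genes (Hoxb2, Hoxb3, Hoxb4 and Hoxb5), 1 of 7 Hoxc genes (Hoxc9) and 0 of 8 Hoxd genes. Among the cofactors, 2 of 3 Meis genes and 3 of 3 Pbx genes were detected. Read by paralogue number, detection covered 3 of 10 genes of paralogues 1 to 4, 3 of 9 of paralogues 5 to 8 and 3 of 14 of paralogues 9 to 13. In the Hoxa cluster the detected genes had paralogue numbers 5 to 10, and in the Hoxb cluster 2 to 5.

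**Figure D1:**
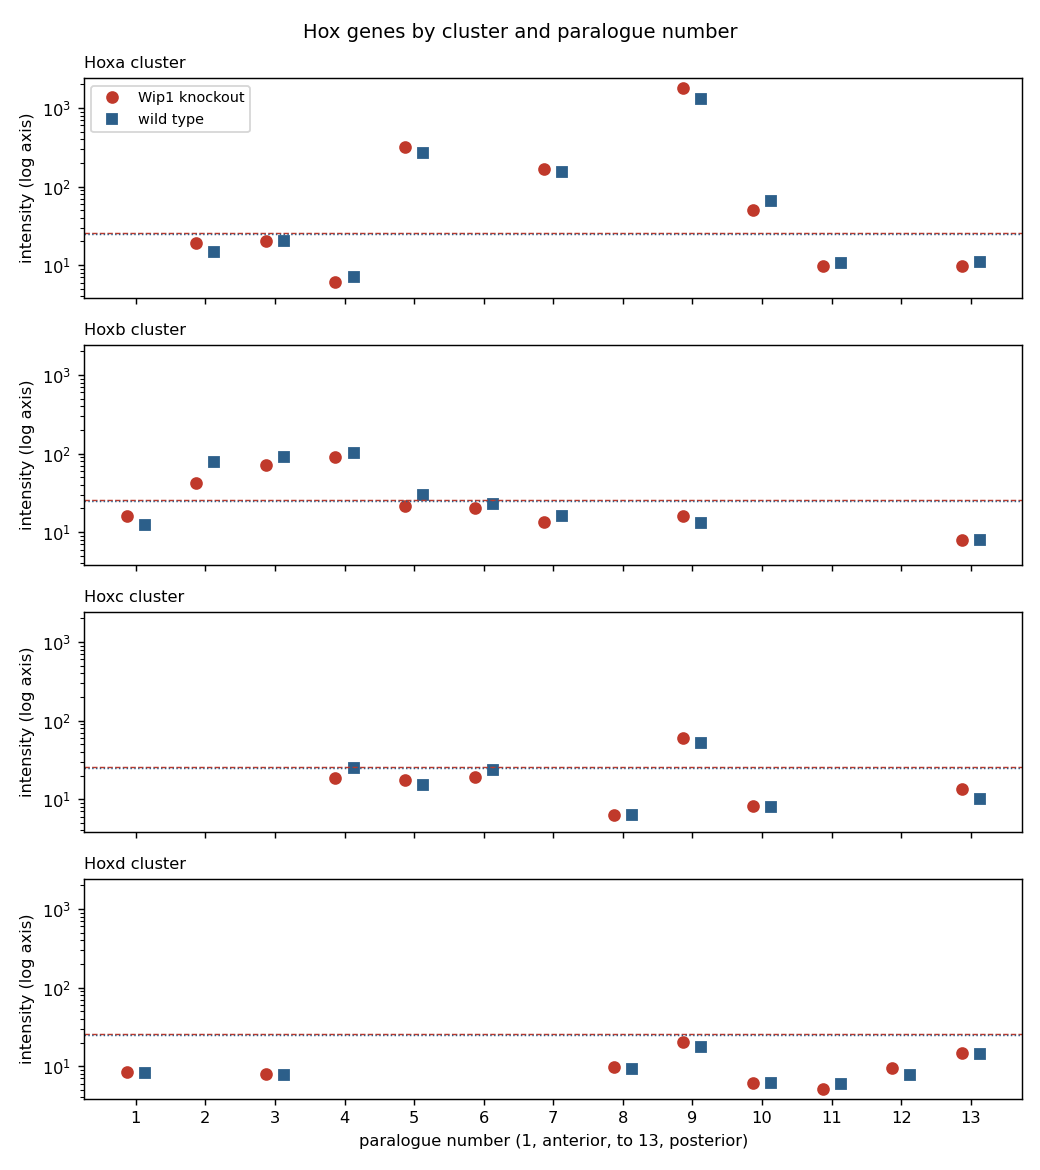
Intensity (log axis) of each measured Hox gene by its brightest probe set, against paralogue number, with 1 panel per cluster, red circles for the knockout array and blue squares for the wild-type array. Dashed red and dotted blue lines mark the floors of 25.9 and 25.2; points above them run from paralogue 5 to 10 in Hoxa and from 2 to 5 in Hoxb, and none is above them in Hoxd.

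The remaining 25 measured genes were under the floor on both arrays, and no difference is given for them. They were Hoxa2, Hoxa3, Hoxa4, Hoxa11 and Hoxa13, Hoxb1, Hoxb6, Hoxb7, Hoxb9 and Hoxb13, Hoxc4, Hoxc5, Hoxc6, Hoxc8, Hoxc10 and Hoxc13, the 8 Hoxd genes and Meis2. The Hoxd genes were Hoxd1, Hoxd3, Hoxd8, Hoxd9, Hoxd10, Hoxd11, Hoxd12 and Hoxd13. Over the 25 genes, intensities lay between 5.15 and 20.5 in the knockout and between 5.89 and 25.01 in the wild type. Hoxc4 came closest to the floor, with 18.3 in the knockout and 25.01 in the wild type, followed by Hoxc6 with 18.9 in the knockout and 23.4 in the wild type, and Hoxb6 with 20.0 in the knockout and 23.0 in the wild type. A value under the floor does not show that a gene was silent.

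With the floor used here, detected Hoxa genes were mostly higher in the knockout and detected Hoxb genes were all lower, by small amounts. In the Hoxa cluster 3 of 4 were higher, with a median log2 difference of 0.19, and in the Hoxb cluster 4 of 4 were lower, with a median of -0.25 that counts the bound for Hoxb5. Over all detected genes 46.6% were higher and 50.6% lower, with a median of -0.0031. Over the 14 detected members 6 were higher and 8 lower, with a median of -0.15. The 8 include Meis1 by its brightest probe set, although its other detected probe set was higher. With the median over the probe sets of each gene, the member median was -0.007. None of the 14 members reached 2-fold by its brightest probe set, while 0.455% of detected genes did so upwards and 0.21% downwards. At 1.5-fold, 0 members were higher (2.28% of detected genes) and 1 was lower, Hoxb2 (1.57%). Differences larger than the SD between probe sets were found for 7 of 14 members (50%), against 33.6% of detected genes: Hoxa5, Hoxa9 and Hoxc9 were higher, and Hoxa10, Hoxb2, Hoxb3 and Pbx3 were lower. These 2 shares are not matched for brightness. Of the 14 members, 9 were not above the 75th percentile on both arrays. Over all detected genes of that dimmer kind, differences had an SD of 0.32, against 0.24 for the brighter ones. The values of Hoxa5, Hoxa10 and Pbx3 came from probe sets of the classes _x_at, _a_at and _s_at. Without these classes Hoxa5 was at 0.11, within the SD between probe sets, and Hoxa10 and Pbx3 had no value.

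Hoxa9, whose loss in mice weakens stem cell repopulation, was measured by 2 probe sets. The brighter one had 1773 in the knockout and 1303 in the wild type, a log2 difference of 0.45 (1.37-fold), and the other had 385 in the knockout and 306 in the wild type, a log2 difference of 0.34. Both probe sets of Hoxa9 were therefore higher in the knockout, and they disagreed with each other by 0.11, a range that 73.6% of genes with several detected probe sets reached or exceeded. Of all detected genes, 7.69% differed by at least as much as its brighter probe set. Hoxa5, known for steering progenitors between the erythroid and myeloid fates, had 321 in the knockout and 270 in the wild type in its brighter probe set (log2 difference 0.26). Its other probe set had 166 in the knockout and 154 in the wild type (0.12), so both were higher and only the brighter one differed by more than the SD. Hoxa7, which lies between them, had 167 in the knockout and 154 in the wild type (0.13), a difference within the SD between probe sets.

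Hoxa10, which is known to hold back differentiation when overexpressed in progenitors, went the other way. It had 49.8 in the knockout and 66.2 in the wild type, a log2 difference of -0.40, by its only detected probe set. The second probe set of Hoxa10 was under the floor on both arrays (8.36 in the knockout, 8.23 in the wild type). With the floor used here, the detected Hoxa genes therefore did not all go the same way. Hoxa10, next to Hoxa9 on the posterior side, was lower while Hoxa5, Hoxa7 and Hoxa9 were higher. That exception rests on a dim probe set of the class _a_at. With the floor at the 75th percentile Hoxa10 had no value, and 3 of 3 detected Hoxa genes were higher. The same held without the _s_at, _x_at and _a_at classes.

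Hoxb2, best known for patterning the hindbrain, had the largest difference of any member by its brightest probe set. It had 42.2 in the knockout and 78.7 in the wild type, 1.85-fold lower in the knockout (log2 difference -0.89), by its only probe set. Of all detected genes, 1.03% differed by at least as much in either direction. Hoxb3, a neighbour whose loss together with Hoxb4 impairs mouse stem cells, had 72.2 in the knockout and 90.1 in the wild type in one probe set (-0.31) and 51.9 in the knockout and 62.3 in the wild type in the other (-0.25). Both Hoxb3 probe sets were lower by more than the SD and disagreed by only 0.06.

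Hoxb4, the stem cell expanding gene named above, was lower within the SD between probe sets. It had 91.1 in the knockout and 102 in the wild type (-0.15), and its second probe set, close to the floor, had 27.8 in the knockout and 29.4 in the wild type (-0.07). Hoxb5, whose reporter marks long-term stem cells in mice, was the only member above the floor on 1 array alone. It had 21.6 in the knockout, under the floor, and 29.6 in the wild type, a bound of at least 0.18 lower on the log2 scale. With the floor at the 25th percentile, where both its values count as measured, Hoxb5 had a log2 difference of -0.45. The 4 Hoxb genes were all dim: none was above the 75th percentile on both arrays, and with the floor at that percentile 0 Hoxb genes were detected.

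Hoxc9, a gene of trunk patterning, was the only detected gene of its cluster. It had 60.6 in the knockout and 51.2 in the wild type, a log2 difference of 0.25 by its only probe set, just over the SD between probe sets. In bulk RNA, fewer cells of a type and less RNA per cell cannot be told apart, and this holds for every difference given here.

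**Figure D2:**
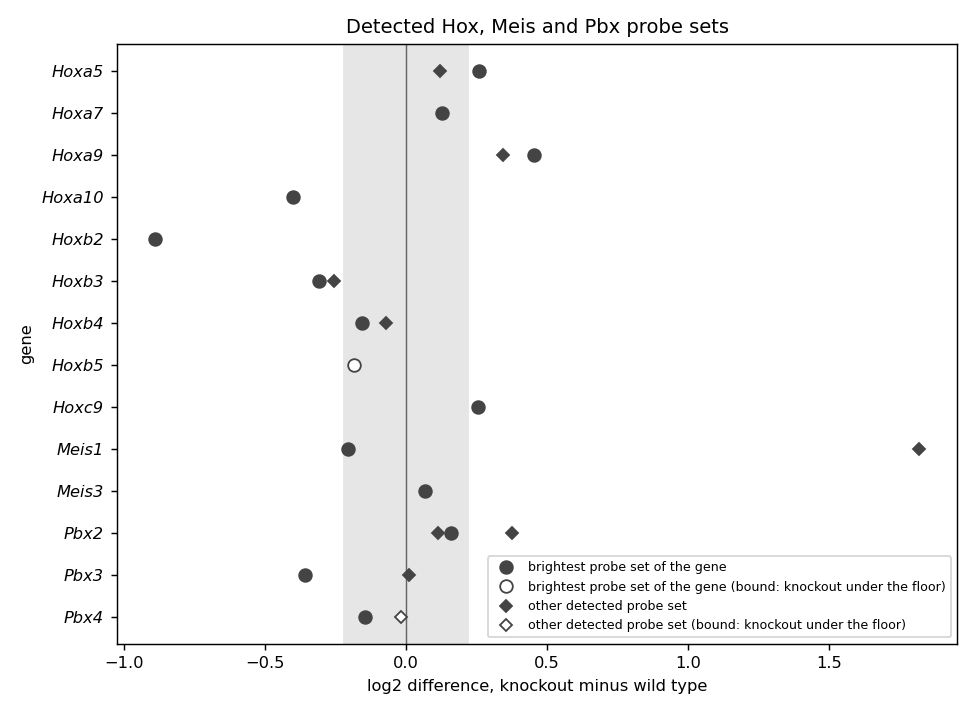
Log2 difference (knockout minus wild type) of each detected probe set, with 1 row per gene, circles for the brightest probe set of a gene, diamonds for its other detected probe sets and open symbols for bounds. The grey band is the SD between probe sets of one gene (0.22 either way); the Hoxb symbols all lie left of 0, and the Meis1 probe sets lie far apart at -0.21 and 1.82.

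Meis1, the cofactor that stem cells need and that cooperates with Hoxa9 in leukaemia, gave opposite answers by probe set. Its brightest probe set had 258 in the knockout and 300 in the wild type, a log2 difference of -0.21. A second had 158 in the knockout and 45.2 in the wild type, 3.53-fold higher in the knockout (log2 difference 1.82). The third was under the floor on both arrays, with 23.6 in the knockout and 19.3 in the wild type. The 2 detected probe sets differed by 2.02 on the log2 scale, and only 4 of the 5084 genes with several detected probe sets, Meis1 included, had a range that large. The place of each probe set in the Meis1 transcript is not known here, and the direction for Meis1 depends on the probe set and is not settled. The median over its probe sets was 0.81, and the gene stood at 1.81 when the probe set classes _s_at, _x_at and _a_at were left out.

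Meis3, a relative of Meis1 known from hindbrain development, had 39.9 in the knockout and 38.4 in the wild type, a log2 difference of 0.07. It was above the floor on both arrays, and its difference was within the SD. Meis2, with 4 probe sets, was under the floor in its brightest one.

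The Pbx genes encode partners that bind DNA with Hox and Meis proteins. Pbx2 was higher in each of its 3 probe sets: 241 in the knockout and 217 in the wild type (0.16), 98.7 in the knockout and 76.5 in the wild type (0.38), and 96.1 in the knockout and 89.4 in the wild type (0.11). The differences of Pbx2 shared a direction, and only 1 of them exceeded the SD. Pbx3, a partner known to act with HOXA9 in human leukaemia, had 93.2 in the knockout and 120 in the wild type (-0.36) in its brighter probe set. Its other probe set held 62.6 on both arrays, exactly the same value, so the lower level rests on 1 probe set. Pbx4, known from the mouse testis, had 38.0 in the knockout and 42.3 in the wild type (-0.15), and its second probe set had 16.1 in the knockout, under the floor, and 26.3 in the wild type, a bound of at least 0.02 lower.

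Of 8 member genes with several detected probe sets, 6 had all of them on the same side of 0, against 56.5% of all such genes. The exceptions were Meis1 and Pbx3. These shares are not matched for the number of probe sets per gene and do not show that members agreed better than other genes. Pbx4 is among the 6 by a bound of -0.02 for its second probe set. The Pbx3 probe set that was identical on both arrays lay at 0.01 only through the centring, so Pbx3 had no true opposite direction. Among all 63 member probe sets 6 held identical values on both arrays (9.52%), against 5.63% of all probe sets, and 5 of the 6 lay under the floor.

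**Figure D3:**
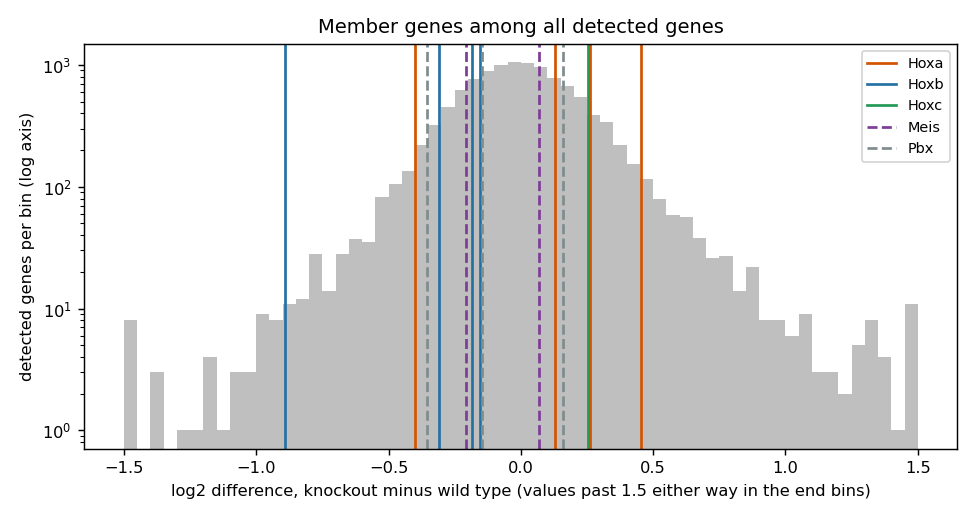
Histogram of the log2 difference (knockout minus wild type) over 11440 detected genes, with a log count axis, and a vertical line for each detected member gene coloured by cluster or family. Each line is the brightest probe set of the gene. Among these Hoxb2 at -0.89 is farthest from 0, and the others lie between -0.40 and 0.45. The second detected Meis1 probe set, at 1.82, is not drawn.

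The sequence around a gene's start is shown for 4 genes: Hoxa5 and Hoxa9, which were higher, Hoxb4, a gene of the cluster whose detected members were all lower, itself within the SD, and Meis1, whose probe sets disagreed. The RefSeq table (GRCm38.p6) held a promoter of 300 bases, 250 before and 50 after the start, for 27 of the 44 genes. Hoxa5 lies at chr6:52204538-52204837 on the minus strand, Hoxa9 at chr6:52227321-52227620 on the minus strand, Hoxb4 at chr11:96318017-96318316 on the plus strand and Meis1 at chr11:19018920-19019219 on the minus strand. Capitals mark matches to the motifs searched, on either strand.
Hoxa5: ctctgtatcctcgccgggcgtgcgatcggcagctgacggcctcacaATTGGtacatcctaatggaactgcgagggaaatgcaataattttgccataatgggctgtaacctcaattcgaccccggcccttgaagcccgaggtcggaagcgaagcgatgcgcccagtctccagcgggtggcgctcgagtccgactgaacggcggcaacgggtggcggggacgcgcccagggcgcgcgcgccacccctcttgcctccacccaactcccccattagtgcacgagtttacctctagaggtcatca
Hoxa9: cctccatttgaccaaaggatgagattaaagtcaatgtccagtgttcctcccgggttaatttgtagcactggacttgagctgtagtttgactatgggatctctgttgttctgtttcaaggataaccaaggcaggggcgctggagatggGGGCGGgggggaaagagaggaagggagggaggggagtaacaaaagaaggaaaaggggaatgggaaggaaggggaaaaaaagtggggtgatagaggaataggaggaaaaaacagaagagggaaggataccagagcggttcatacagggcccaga
Hoxb4: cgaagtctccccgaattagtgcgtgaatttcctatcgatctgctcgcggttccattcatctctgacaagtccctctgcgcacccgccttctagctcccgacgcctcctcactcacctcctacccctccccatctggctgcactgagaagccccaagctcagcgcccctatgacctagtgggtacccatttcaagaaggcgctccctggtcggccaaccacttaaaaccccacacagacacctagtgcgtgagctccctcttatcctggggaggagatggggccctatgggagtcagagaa
Meis1: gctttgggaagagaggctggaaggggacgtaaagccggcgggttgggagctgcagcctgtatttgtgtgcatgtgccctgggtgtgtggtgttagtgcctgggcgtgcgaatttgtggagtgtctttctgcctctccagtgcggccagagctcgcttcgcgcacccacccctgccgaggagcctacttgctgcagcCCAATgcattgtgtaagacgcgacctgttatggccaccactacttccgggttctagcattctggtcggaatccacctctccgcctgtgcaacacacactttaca

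The motifs searched were the CCAAT box (CCAAT), the GC box bound by Sp1 (GGGCGG), the TATA box (TATAAA), the E-box bound by USF factors (CACGTG), a Hox and Pbx site (TGATNNAT) and a Meis site (TGACAG). Hoxa5 held a CCAAT box on the reverse strand (printed ATTGG), Hoxa9 a GC box, Meis1 a CCAAT box and Hoxb4 no match, and no matches overlapped. Of all 32851 promoters of this length, 37.4% held CCAAT, 35.7% GGGCGG, 13.6% TATAAA, 7.15% CACGTG, 8.85% TGATNNAT and 19.2% TGACAG. Among 10 promoters of detected members, 4 held CCAAT, 3 GGGCGG, 1 TATAAA and 0 any of the other motifs. Member promoters had a median of 15 CpG dinucleotides, against 7 over all promoters. Hoxa9 had 4 and Hoxa5 had 29, so the genes that were higher together had unlike promoters by this measure.

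Genes that act on the Hox clusters went both ways. Of 24 detected genes on a list of known Hox activators, 14 were higher and 10 lower, with a median of 0.03 and none at 1.5-fold. Kmt2a, the histone methyltransferase that maintains Hox expression, had 574 in the knockout and 482 in the wild type (0.26), the acetyltransferase gene Kat6a differed by 0.22, and Usf2, which codes for an E-box factor, by 0.17. Of 18 detected genes on a list of known Hox repressors, mostly Polycomb genes, 7 were higher and 10 lower, with a median of -0.03. Zbtb16, a repressor of Hox genes in the limb, was the only one past 1.5-fold, with 92.9 in the knockout and 148 in the wild type (-0.66). Ezh1, a Polycomb methyltransferase used in quiescent stem cells, had 204 in the knockout and 139 in the wild type (0.56), and Gmnn differed by -0.30.

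On a list of known targets of Hoxa9 and Meis1, more genes were higher than lower in the knockout. Of 20 detected targets 15 were higher (75%, against 46.6% of all detected genes) and 5 lower. The median was 0.14, against -0.0031 over all detected genes. The list was chosen with earlier results of these data known, so its direction is not an independent result. Flt3, the receptor of early lymphoid and multipotent progenitors, was the only one past 2-fold, with 2112 in the knockout and 892 in the wild type (1.25). Myc had 789 in the knockout and 573 in the wild type (0.47), and Cd34, a surface protein of progenitors, differed by 0.43. Whether these genes follow Hoxa9 in these cells was not tested.

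**Figure D4:**
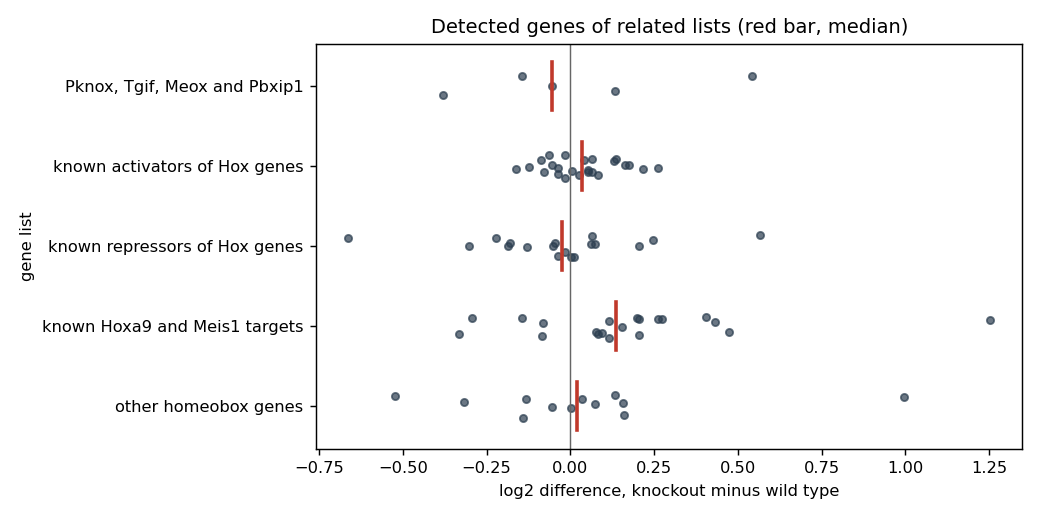
Log2 difference (knockout minus wild type) of each detected gene in 5 lists, with 1 row per list, a point per gene spread vertically for visibility and a red bar at the median. The targets of Hoxa9 and Meis1 have a median of 0.14, with Flt3 at 1.25, and the other medians lie between -0.06 and 0.03.

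Other partners and other homeobox genes went both ways. Of 5 detected genes among Pknox, Tgif and Meox genes and Pbxip1, 2 were higher and 3 lower, with a median of -0.06. Pbxip1, which encodes a protein that binds Pbx factors, had 370 in the knockout and 256 in the wild type (0.54). Tgif2, a repressor of the same homeodomain class as Meis, had 528 in the knockout and 692 in the wild type (-0.38), and Tgif1 differed by -0.15. Of 12 detected homeobox genes outside the clusters, 7 were higher and 5 lower, with a median of 0.02. Satb1, a chromatin organiser of lymphoid cells, had 1099 in the knockout and 555 in the wild type (0.995, just under 2-fold), and Pax6 (-0.52) and Nkx2-5 (-0.32), which are tissue genes near the floor, were lower.

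Markers of blood lineages also differed between these 2 samples, in both directions, and their part in the Hox differences was not tested. Of 10 detected lymphoid markers 9 were higher in the knockout, with a summed intensity of 6951 in the knockout and 3195 in the wild type, led by Il7r (1.32), Dntt (1.31) and Blnk (1.13). Such sums mostly follow their brightest genes and do not measure cell content. Dntt alone had 5492 in the knockout and 2228 in the wild type. The macrophage list was higher in 7 of 7 detected markers, with sums of 1612 in the knockout and 861 in the wild type, led by Csf1r (1.40), C1qc (at least 0.85) and Irf8 (0.76). Megakaryocyte markers were lower in 6 of 6, with sums of 722 in the knockout and 1037 in the wild type, led by Pf4 (-0.78), Vwf (-0.67) and Treml1 (-0.56). Neutrophil markers were lower in 8 of 10, with sums of 13772 in the knockout and 16227 in the wild type, led by Ms4a3 (-0.72), Mpo (-0.57) and Elane (-0.48). Within the stem cell list 6 were higher and 6 lower, with Meg3 past 2-fold (329 in the knockout, 71.9 in the wild type), Hlf at 0.70 and Slamf1 at -0.66. No marker of these lists had a value of 0 on either array. The sums were 834 in the knockout and 588 in the wild type for stromal markers, led by Pdgfrb (0.91), Dcn (-0.36) and Sp7 (0.25). Nearly all of that gap came from Pdgfrb, with 525 in the knockout and 281 in the wild type. Erythroid sums were 941 in the knockout and 1072 in the wild type, led by Gata1 (-0.84), Slc4a1 (0.49) and Epor (-0.38). Sums for T and natural killer cell markers were 802 in the knockout and 983 in the wild type, led by Nkg7 (-0.31), Cd3e (-0.22) and Cd8a (-0.18). Most of that gap came from Nkg7, with 668 in the knockout and 835 in the wild type.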

How the data were processed

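Total RNA from 2 samples, 1 Wip1 knockout and 1 wild-type, was hybridised to Affymetrix arrays. The authors deposited 1 linear intensity per probe set and array for 45037 probe sets. Per the submitters' processing notes the program was MAS5, with no version; the background correction and scaling are not stated. Of all probe sets 5.63% held the same value on both arrays. The platform annotation gave 1 gene to 34945 probe sets, several to 932 and none to 9160, and these last 2 kinds were left out. Symbols were updated through the RefSeq gene table (34741 matched).

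Intensities were converted to log2 after values below the floor had been raised to it, and differences were centred on the median over detected gene probe sets, which removed a shift of -0.01. A bound on the wrong side of 0 was set to 0, and identical values were counted as neither higher nor lower. The number of arrays limits the precision, and groups followed the genotype labels. All detected member genes were named, and of every other list the 3 detected genes with the largest difference and any past 2-fold. The member genes and lists were chosen with earlier results of these data known. The procedure was checked on simulated arrays, with large differences planted in bright genes only. That check does not cover differences as small as those of the member genes, or dim genes. Alternatives changed the centring, the normalization (quantile or loess), the level of the floor, the offset, the choice of probe set and the probe set classes used. Python 3.11.15, numpy 2.4.6, pandas 2.3.3, statsmodels 0.14.6 and matplotlib 3.10.9 were used.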

Additional observations from a re-analysis of the deposited data

How the results depend on the processing

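Results were recomputed under 9 alternatives, and those for the direction of the Hoxa and Hoxb genes and for single genes were added after seeing the data. The count of member genes above the floor on both arrays was 13, and it was 26 with the floor at the 25th percentile and 5 with the floor at the 75th percentile. The count at least 1.5-fold different was 1, and it was 0 with the floor at the 75th percentile, 2 with the median over probe sets and 2 without the _s_at, _x_at and _a_at classes. In the last setting 1 gene passed 2-fold, Meis1, because its brightest probe set was left out. The median of -0.15 over detected members became 0.16 with the floor at the 75th percentile, where 6 genes were left, and 0.11 without those classes, where 11 were left, so its sign is not stable. No Hoxb gene was detected with the floor at the 75th percentile, where the count of lower Hoxb genes was 0. Hoxa and Hoxb counts otherwise stayed within 1.5 times, but the number of genes they were taken from also changed. With the floor at the 25th percentile 4 of 8 detected Hoxa genes were higher and 6 of 8 Hoxb genes lower. With no floor these were 4 of 9 and 6 of 9. Hoxa being mostly higher and Hoxb all lower therefore hold only for the genes above the floor used here. Of 115 single-gene values, 109 moved by under 1 probe set SD and 2, both for Meis1, changed sign. Hoxb2 was -0.61 with an offset added. No paired analysis was possible because there was 1 array per genotype, and no replicate could be left out. No detection call or background value was used here, so signal over background could not set a limit for the dim Hoxb genes.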

Other observations

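Other transcripts of the clusters were compared by genome order in the RefSeq table. Hoxb5os, a long noncoding RNA gene inside the Hoxb cluster, was brighter than the array's 75th percentile, with 238 in the knockout and 329 in the wild type, and a log2 difference of -0.46, the same direction as the 4 detected Hoxb genes. The Hoxa noncoding gene Gm15050 had 25.2 in the knockout, under the floor, and 27.1 in the wild type, and Hoxa11os, Hoxd3os1 and Gm38462 were under the floor on both arrays. Among the 2 nearest measured protein-coding genes on each side of each cluster, 13 of 16 were detected, 5 higher and 8 lower. By brightest probe set they lay between -0.28 (Skap2) and 0.25 (Snx10), and 2 other probe sets of Skap2 had 0.27 and 0.02. Dimmer probe sets of other flanking genes reached further down, to -0.39 for Cbx5 and -0.30 for Nfe2l2. By brightest probe set, Hoxb2 (-0.89), Hoxa9 (0.45), Hoxa10 (-0.40) and Hoxb3 (-0.31) differed by more than any of these flanking genes. Hoxb3 did not differ by more than the dimmer Cbx5 probe set. Hoxa7 (0.13), Hoxb4 (-0.15) and the bound for Hoxb5 (-0.18) lay within the flanking range by brightest probe set. Hoxa5 (0.26) and Hoxc9 (0.255) lay just outside it.

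Probe sets that name several genes were outside the gene comparison. One shared by Hoxd4 and Hoxd3 had 30.2 in the knockout and 21.9 in the wild type, under the floor, a bound of at least 0.27 higher, while the other probe set of this pair and the one shared by Hoxb8 and Hoxb7 were under the floor on both arrays.

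The deposited values have a structure that was not explained. Among probe sets above the floor on both arrays, 7.99% of knockout values and 7.90% of wild-type values lay on steps of 0.5 with the same remainder. Both values of Hoxb2 did so, and Hoxb2 was the only detected member probe set for which both did.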
